A study of Mus musculus with 6 samples.

Results

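The 2′-5′-oligoadenylate synthetase (OAS) family was examined in GC-2spd cells, an immortalised mouse line derived from spermatocytes, after exposure to PM2.5 (fine airborne particulate matter). Per the study's methods, the particles given to cells were a purchased standard material of urban origin from the USA, suspended in buffer. The 8 genes were Oas1a, Oas1b, Oas1c, Oas1g, Oas2, Oas3, Oasl1 and Oasl2, out of 54886 genes listed in each library. They were selected as family members from the levels in PM2.5 against control libraries, so their values in that contrast are a description, and how many of them pass a threshold is printed only beside the share of all genes that do. The control group was untreated cells kept in normal medium (the study's methods also name a small volume of PBS) and the other group received PM2.5 at 100 μg/mL for 48 h, with 3 libraries in each group. All 6 libraries came from 1 cell line of BALB/c background and carried no other allele or agent in the labels. Nothing in the labels says that the libraries of a group came from separate cultures, so the spread between them may be technical.

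OAS enzymes sense double-stranded RNA and make short 2′-5′-linked oligoadenylates (2-5A) from ATP. The oligoadenylates act as second messengers of the antiviral response, which slows protein synthesis in infected cells, until phosphodiesterases degrade them. Transcription of OAS genes is induced by interferons through the factor ISGF3, which binds the interferon-stimulated response element (ISRE). OAS-like (Oasl) proteins carry ubiquitin-like repeats behind the OAS unit, and Oasl1 lacks synthetase activity while mouse Oasl2 has kept it.

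Depth recovered from the deposited values ranged from 16209352 to 18003201 reads per library. Control replicate 2 stood apart: its log2(FPKM + 1) values correlated across genes with those of the other 5 libraries at r between 0.732 and 0.779, against 0.9502 to 0.992 for all other pairs (genes are not independent replicates). Mitochondrial genes took 14.5% of its reads and 1.65% to 1.95% of the reads of the others. Fold changes of the OAS genes are therefore given with and without that library where both could be had, and the part of its RNA composition in the OAS values was not tested. Defining spermatocyte markers were nearly absent: none of 14 (among them Sycp1, Dmc1, Spo11 and Stra8) had a mean FPKM of 1 or more, 4 were at 0 in all libraries, and their summed FPKM was 1.12 to 3.50 in control and 0.340 to 0.969 in PM2.5 libraries, whose part in the OAS values was not tested. Of 6 immune cell markers, 5 including Ptprc, Adgre1 and Itgam were at 0 in all libraries, and the sum did not exceed 0.0692 FPKM. The Sertoli sum was 17.3 to 19.2 in control and 12.1 to 23.6 in PM2.5 libraries (of which Gata4 alone averaged 1 or more), and the Leydig sum was 1.98 to 2.59 and 1.67 to 1.89.

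The 8 genes lie on chromosome 5 (GRCm38) in 2 clusters. The Oas cluster spans 177 kb and holds Oas2 (120730333 to 120749853), Oas3 (120753098 to 120777661), Oas1c (120800194 to 120812514), Oas1g (120876142 to 120887613) and Oas1a (120896256 to 120907521), all on the minus strand. Oas1b lies among them on the plus strand, from 120812635 to 120824163. The Oasl cluster spans 41.0 kb and holds Oasl2 (114896936 to 114912234) and Oasl1 (114923240 to 114937915), both on the plus strand.

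Promoter sequences of 5 genes are shown because the interferon element is the feature the promoters of this family are known for. They run from 250 bases before the transcription start to 50 after it, 5′ to 3′ on the strand of the gene (RefSeq, GRCm38.p6), with exact matches to the ISRE core GAAANNGAAA, searched on both strands, in capitals. The first 4 hold an exact match and Oasl2 is shown as a promoter without one.
Oas1a (chr5:120907476-120907775, minus strand): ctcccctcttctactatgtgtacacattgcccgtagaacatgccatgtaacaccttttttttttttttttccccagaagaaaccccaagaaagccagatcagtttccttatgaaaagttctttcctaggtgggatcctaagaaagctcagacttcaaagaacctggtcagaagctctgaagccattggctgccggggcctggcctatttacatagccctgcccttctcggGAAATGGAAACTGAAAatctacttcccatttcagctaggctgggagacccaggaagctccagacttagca
Oas1g (chr5:120887564-120887863, minus strand): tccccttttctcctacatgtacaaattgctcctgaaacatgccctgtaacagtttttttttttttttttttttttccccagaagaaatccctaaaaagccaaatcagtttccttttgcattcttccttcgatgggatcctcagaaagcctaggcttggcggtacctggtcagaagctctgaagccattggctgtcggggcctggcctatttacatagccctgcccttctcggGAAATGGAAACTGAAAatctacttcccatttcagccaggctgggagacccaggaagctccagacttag
Oas1c (chr5:120812465-120812764, minus strand): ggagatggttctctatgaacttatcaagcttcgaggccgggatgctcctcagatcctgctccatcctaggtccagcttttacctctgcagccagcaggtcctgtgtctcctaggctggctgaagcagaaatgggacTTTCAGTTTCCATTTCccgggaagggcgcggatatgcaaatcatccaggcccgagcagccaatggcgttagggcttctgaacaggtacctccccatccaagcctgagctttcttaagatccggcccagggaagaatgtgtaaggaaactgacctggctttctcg
Oas3 (chr5:120777610-120777909, minus strand): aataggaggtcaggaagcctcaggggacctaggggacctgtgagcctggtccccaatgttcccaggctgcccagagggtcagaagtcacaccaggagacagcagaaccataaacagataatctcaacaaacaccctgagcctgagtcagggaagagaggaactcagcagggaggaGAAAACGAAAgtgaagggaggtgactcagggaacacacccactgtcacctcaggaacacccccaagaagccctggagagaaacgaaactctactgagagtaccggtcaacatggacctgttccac
Oasl2 (chr5:114896684-114896983, plus strand): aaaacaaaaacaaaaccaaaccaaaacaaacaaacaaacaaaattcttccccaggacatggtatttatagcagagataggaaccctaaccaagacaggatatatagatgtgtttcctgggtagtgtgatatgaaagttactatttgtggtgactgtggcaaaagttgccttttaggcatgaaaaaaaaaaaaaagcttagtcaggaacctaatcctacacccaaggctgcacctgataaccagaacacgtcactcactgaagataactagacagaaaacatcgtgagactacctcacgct

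Of the 6 members with a promoter entry, 4 (66.7%) held an exact ISRE core, against 1131 of 32851 promoters (3.44%) overall. In Oas1a a pair of overlapping matches ran from base -20 to base -5 relative to the start, and in Oas1g the same letters ran from -18 to -3. Oas1a and Oas1g are near copies whose promoters were 88.8% identical over 294 aligned bases, so they are not independent examples. Oas1c held an overlapping pair on the opposite strand, from -114 to -99, and Oas3 held 1 match from -75 to -66. Read on that opposite strand, the Oas1c pair has the same letters as the pair of Oas1a. The start of Oas1b (120812635, plus strand) lies inside the Oas1c stretch, and the pair lies just upstream of it. The pair can therefore not be assigned to Oas1c alone, and which gene it serves was not tested. With 1 mismatch allowed, all 6 promoters matched, as did 35.4% of all promoters. The GAS element TTCNNNGAA, a motif of interferon-γ responses, was found in 1 of the 6 (Oas1a, -98 to -90) and in 8.30% of all promoters. A match is a run of letters and not a site shown to be bound, and Oas1b and Oas2 had no entry of their own.

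**Figure D1:**
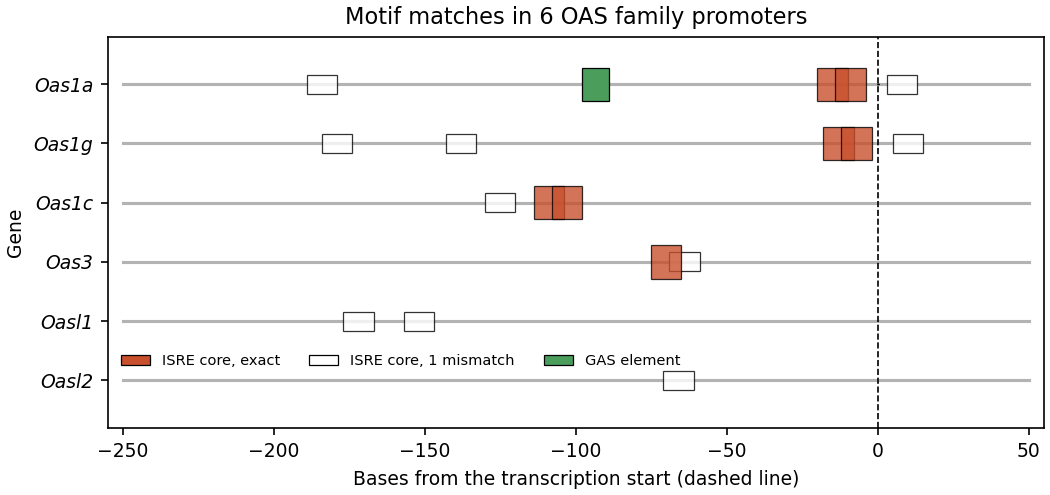
Positions of motif matches in the promoters of 6 OAS family genes, in bases from the transcription start (dashed line, x axis), 1 gene per line. Filled boxes are exact ISRE cores, open boxes have 1 mismatch and the green box is the GAS element; Oas1a, Oas1g, Oas1c and Oas3 hold exact cores, and Oasl1 and Oasl2 do not.

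All 8 genes were lower in every PM2.5 library than in every control library. Levels are given in FPKM (fragments scaled by exon length and library depth, as deposited), and differences as log2 fold changes of FPKM + 1 from limma (genes averaging 1 FPKM or more), which understate the change of low genes. The median log2 fold change of the 8 was -1.54 (range -2.96 to -0.42), against 0.02 for all 11884 genes tested. Of all genes tested, 0.572% lay at or below that median, and 6.85% (814 genes) likewise had every control library above every PM2.5 library. These shares describe the background and support nothing about the family, since the same contrast chose it. In bulk RNA, fewer cells expressing a gene and less RNA per cell cannot be told apart. All 8 passed the filter on low values, Oas1c only through its control level.

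**Figure D2:**
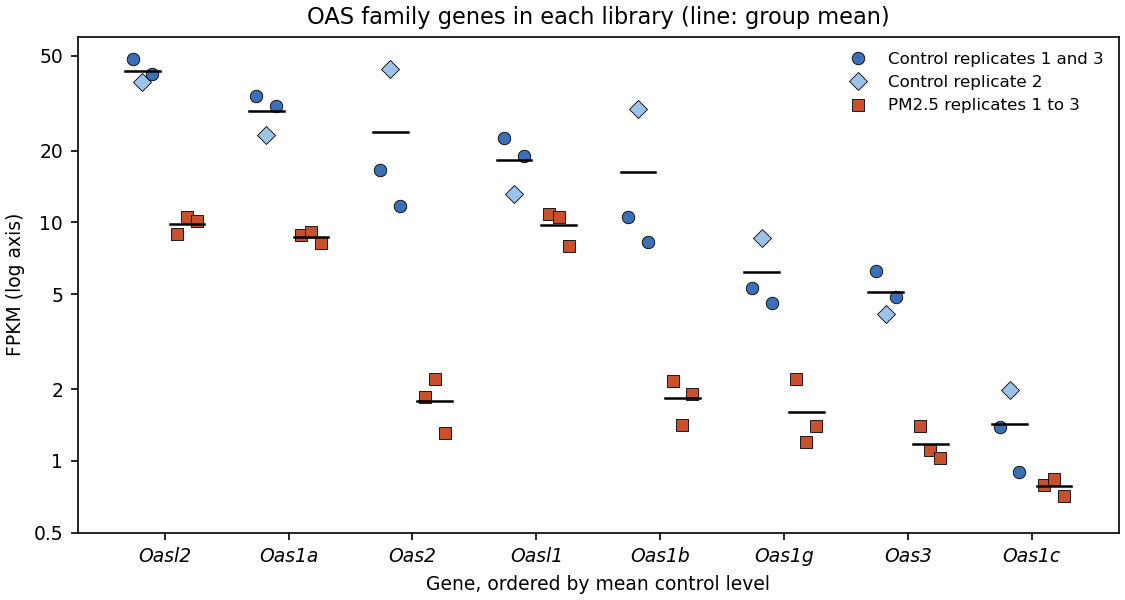
FPKM (log axis) of the 8 OAS family genes in each of the 6 libraries, ordered by mean control level; points are libraries, with control replicate 2 drawn as a light diamond, and horizontal lines are group means. Every PM2.5 library lies below every control library for each gene, and control replicate 2 is the highest control for Oas2, Oas1b, Oas1g and Oas1c and the lowest for the other 4.

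Among the Oas1 to Oas3 genes, Oas1a had the highest mean level in both groups. Oas1a is a small synthetase with a single OAS unit and one of the mouse Oas1 genes known to encode an active enzyme. Its FPKM was 33.9, 23.2 and 30.6 in control replicates 1 to 3 and 8.88, 9.12 and 8.16 in PM2.5 replicates 1 to 3. The PM2.5 libraries lay close together and the lowest control was 2.54 times the highest of them. Group means were 29.2 ± 5.49 and 8.72 ± 0.499 (SD, n = 3 each), a 3.35-fold lower level. The log2 fold change was -1.62 (SE 0.21), and -1.77 (SE 0.10) without control replicate 2, where the fold was 3.70.

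Oas1g, the near copy of Oas1a and also an active synthetase, had 5.32, 8.60 and 4.60 FPKM in control and 2.20, 1.204 and 1.40 FPKM in PM2.5 libraries. Control replicate 2 was the highest, 1.73 times the mean of the other controls, whereas for Oas1a it was the lowest at 0.719 times. The means of Oas1g were 6.17 ± 2.13 and 1.60 ± 0.529 (3.86-fold, or 3.10-fold without that library), with a log2 fold change of -1.44 (SE 0.28) and -1.21 (SE 0.19) without it. The coding sequences of this pair (1101 bases each) were 96.7% identical, and 68.8% of the 31-base words of Oas1a and 55.1% of those of Oas1g occurred in other genes, nearly all in each other. The division of reads between them is therefore uncertain. Their combined reads were 1417, 828 and 1234 in control libraries and 391, 355 and 337 in PM2.5 libraries, so the sum, like each gene, had no overlap between groups. Oas1g took 31.5% of the combined reads in control replicate 2 and 14.1% to 23.5% in the other 5 libraries.

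Oas1b is the gene of flavivirus resistance in mice, and many laboratory strains carry a truncated form, for which GENCODE lists it as a polymorphic pseudogene. Its FPKM was 10.5, 29.7 and 8.30 in control libraries and 2.16, 1.41 and 1.92 in PM2.5 libraries. The transcript was most abundant in control replicate 2, at 3.16 times the mean of the other controls, the highest such ratio of the 8 genes. Means were 16.2 ± 11.8 and 1.83 ± 0.382, and the 8.83-fold difference became 5.14-fold without that library. On the log2 scale Oas1b differed by -2.40 (SE 0.47) with all libraries and by -1.88 (SE 0.17) without control replicate 2.

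Oas1c, an Oas1 gene described as lacking synthetase activity, was the lowest of the 8. Its FPKM was 1.39, 1.99 and 0.899 in control and 0.791, 0.844 and 0.713 in PM2.5 libraries, which rested on 62, 62 and 39 reads and on 34, 36 and 31 reads. The groups were barely separated, the lowest control being 1.07 times the highest PM2.5 library. Oas1c differed by -0.42 (SE 0.23), with a 95% interval of -0.99 to 0.15, and was under the filter once control replicate 2 was left out. The means of 1.43 ± 0.545 and 0.783 ± 0.0656 were 1.82-fold apart, or 1.46-fold without that library. Of its 31-base words 25.2% also occurred in other genes, mostly Oas1e and Oas1d.

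Oas2, with its tandem pair of OAS units, had the largest difference of the family in both fits. Its FPKM was 16.6, 43.7 and 11.7 in control and 1.86, 2.20 and 1.31 in PM2.5 libraries. The control libraries were themselves far apart, with control replicate 2 at 3.09 times the mean of the others, yet the lowest of them was 5.33 times the highest PM2.5 library, the widest gap of the 8 genes. Means were 24.0 ± 17.2 and 1.79 ± 0.453 (13.4-fold), or 7.92-fold without control replicate 2. The log2 fold change of Oas2 was -2.96 (SE 0.48) and -2.44 (SE 0.21) in the 2 fits, and none of its 31-base words occurred in another gene.

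Oas3 carries several OAS units, of which the last is catalytic, and is regarded as the synthetase that binds long double-stranded RNA most avidly. Its FPKM was 6.28, 4.11 and 4.86 in control libraries and 1.40, 1.12 and 1.03 in PM2.5 libraries. Here control replicate 2 was the lowest control, at 0.738 times the mean of the others. Means of 5.09 ± 1.10 and 1.18 ± 0.193 gave a 4.30-fold lower level, 4.71-fold without that library. Oas3 differed by -1.47 (SE 0.20) and by -1.58 (SE 0.14) without it.

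Of the OAS-like pair, Oasl2 had the highest mean of the family in both groups. Its FPKM was 48.5, 38.7 and 41.8 in control and 8.91, 10.5 and 10.2 in PM2.5 libraries, with means of 43.0 ± 5.04 and 9.87 ± 0.848. The groups were separated by 3.67 times from the lowest control to the highest PM2.5 library. Oasl2 was 4.36-fold lower (4.58-fold without control replicate 2), with a log2 fold change of -2.01 (SE 0.19) and -2.09 (SE 0.12) without it.

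Oasl1, known as a brake on the translation of Irf7 mRNA, was the other OAS-like gene and had the second smallest difference. Its FPKM was 22.5, 13.2 and 18.9 in control and 10.9, 10.5 and 7.98 in PM2.5 libraries. Control replicate 2 was its lowest control, 0.635 times the mean of the others and 1.21 times the highest PM2.5 library. Means were 18.2 ± 4.72 and 9.79 ± 1.58, a 1.86-fold lower level that became 2.12-fold without that library, and the log2 fold change was -0.81 (SE 0.26) and -1.02 (SE 0.16). An antisense gene, Gm13822, overlaps Oasl1 by 38 bases, with 3, 17 and 0 reads in control and 0 reads in all PM2.5 libraries, against 1089, 445 and 891 reads of Oasl1 in control libraries. Whether counting used strand is not given in the sources used here.

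The number of members past the threshold depended on control replicate 2, and since this contrast chose the members nothing is read from it. Calls were made in limma at an adjusted p-value (Benjamini-Hochberg) under 0.05 and a log2 fold change beyond 1 in size. With all 6 libraries only Oasl2 of the 8 was called lower, where 7 of 11884 genes (0.0589%) were. None of the 8 was called under 6 other settings on the same libraries. Of these settings, no filter, voom and the replicate block called 0 of all genes tested, and the others called 4 to 10. Without control replicate 2, 5 of the 7 members still in the fit were called lower (Oas1a, Oas1b, Oas2, Oas3 and Oasl2), where 64 of 11597 genes (0.552%) were. Oas1g and Oasl1 were not called in that fit. Leaving out any other single library left 0 members called, and also 0 of all genes tested. Control replicate 2 lay above both other controls for 4 members (Oas1b, Oas2, Oas1c and Oas1g) and below both for the other 4. On the 7 members other than Oas1c, the median log2 fold change was -1.62 with that library and -1.77 without it.

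**Figure D3:**
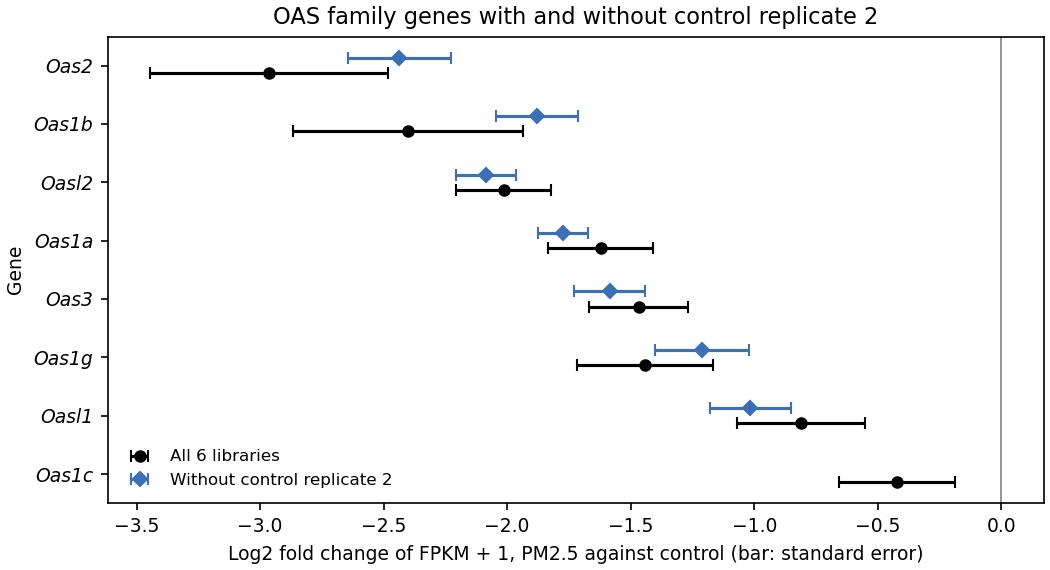
Log2 fold change of FPKM + 1 (x axis, PM2.5 against control, bars are standard errors from limma) of the 8 genes with all 6 libraries (black) and without control replicate 2 (blue). Every estimate is below 0; the standard errors of Oas2 and Oas1b are 0.48 and 0.47 with that library and 0.21 and 0.17 without it, and Oas1c was under the filter without it.

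Whether the Oas1 to Oas3 genes and the OAS-like genes differed in their mean log2 fold change depended on control replicate 2 and on Oas1c. The mean of the 6 Oas genes minus that of the 2 Oasl genes was -0.31, against a pooled SD of 0.417 for this difference over libraries of a group. Without control replicate 2 it was 0.03 (pooled SD 0.0990), so its sign turned. With Oas1c left out it was -0.57 (pooled SD 0.427) over all 6 libraries. With both left out it was -0.23 (pooled SD 0.113), and the control libraries (-1.49 to -1.43) did not overlap the PM2.5 libraries (-1.82 to -1.56) in the log2 level of the 5 Oas genes minus the Oasl genes. The Oasl pair itself was split, with Oasl2 at -2.01 and Oasl1 at -0.81. By library, with all 8 genes, the mean log2 level of the Oas genes minus that of the Oasl genes was -1.83, -0.86 and -1.90 in control and -1.73, -1.96 and -1.82 in PM2.5 libraries, so control replicate 2 stood apart from the other 5.

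The summed FPKM of the 8 genes was 145.0, 163.2 and 121.7 in control and 37.1, 37.0 and 32.7 in PM2.5 libraries. Oasl1 and Oasl2 made up 49.0%, 31.8% and 49.9% of it in control libraries and 53.4%, 57.0% and 55.5% in PM2.5 libraries. The lowest of these shares was again that of control replicate 2, in which Oas2 alone made up 26.8% and Oas1b 18.2%. In PM2.5 libraries Oas2 made up 3.997% to 5.96% and Oas1b 3.83% to 5.87%.

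**Figure D4:**
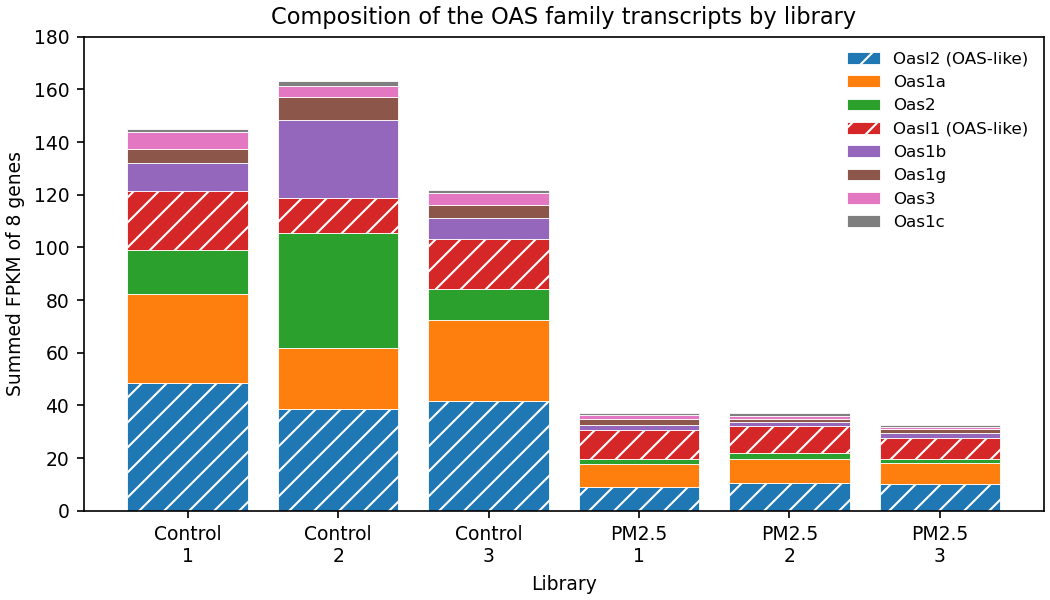
Summed FPKM of the 8 OAS family genes in each library (y axis), stacked by gene, with the OAS-like genes hatched. The sums are 121.7 to 163.2 in the control libraries and 32.7 to 37.1 in the PM2.5 libraries, and Oas2 and Oas1b are widest in control replicate 2.

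In control libraries the order of levels, per length, was Oasl2, Oas1a, Oas2, Oasl1, Oas1b, Oas1g, Oas3 and Oas1c. Oasl2 lay above Oas1a without overlap, and so did Oas3 above Oas1c, whereas the ranges of all other neighbours overlapped. In PM2.5 libraries Oasl2, Oasl1 and Oas1a overlapped between 7.98 and 10.9 FPKM and stood apart from Oas1b, Oas2, Oas1g and Oas3, which overlapped between 1.03 and 2.20 FPKM, with Oas1c again below all. The place of Oas2 above Oasl1 in the control order rested on control replicate 2: without it Oasl1 averaged 20.7 FPKM and Oas2 14.2 FPKM, with no overlap, and Oas3 came before Oas1g with overlap. The remaining Oas1 genes were all but unexpressed: Oas1f had 0 reads in all libraries, and Oas1d, Oas1e and Oas1h had at most 4 reads in any.

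No difference was called for the genes of 2-5A turnover, and their intervals were wide with all 6 libraries. Abce1, an ATP-binding protein of ribosome recycling listed with this group, differed by 0.11 (SE 0.25, 95% interval -0.49 to 0.71). Pde12, a 2′-phosphodiesterase that degrades 2-5A, differed by 0.31 (SE 0.26, 95% interval -0.34 to 0.95), and Akap7, of the same activity, by 0.18 (SE 0.25, 95% interval -0.42 to 0.77). Without control replicate 2, Abce1 differed by 0.02 (SE 0.20), Pde12 by 0.04 (SE 0.09) and Akap7 by -0.03 (SE 0.14). None of the 3 was called in either fit.

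Of 33 other genes of the 2-5A and interferon pathway, 21 were tested in the same limma fit. None was called with all 6 libraries. In limma 8 of the 21 had an unadjusted p-value under 0.05 with a lower level in PM2.5, against 223 of 11884 over all genes. Voom on the recovered reads likewise called 0 and gave 8 at that p-value. In limma the number was 6 with total-read scaling, 10 without control replicate 2 and 4 to 6 without any other single library. Without control replicate 2, 7 of 20 were called, all lower in PM2.5, against the background of 0.552% given above. The list was chosen with earlier results of these data known, so these counts only describe it and nothing is read from them. They were the factors Stat2, Irf9 and Irf7 and 4 sensors of double-stranded RNA. The list median was -0.56 with all libraries (range -2.58 to 0.81) and -0.30 without control replicate 2. These medians are over different sets, since Zbp1 fell under the filter without that library. Below 0 were 15 of 21 and 14 of 20 genes. Over all genes tested, 5718 of 11884 and 6025 of 11597 were below 0.

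The ligands were at or near 0 reads. Ifnb1, which encodes interferon β, had 0, 8 and 2 reads in control and 2, 0 and 0 reads in PM2.5 libraries, and of the other 6 ligand genes only Ifna4 had a read (1, in control replicate 1). Among 3 receptor genes tested, none was called in either fit. Ifnar1 differed by -0.01 (SE 0.17), Il10rb by -0.10 (SE 0.39) and Ifnar2 by 0.24 (SE 0.19), the last with every control library below every PM2.5 library. This held for 1 of the 21 pathway genes tested and for 992 of all 11884 genes tested, so nothing is read from it.

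Of the 7 kinases and factors, 3 that act on interferon-induced promoters were called lower without control replicate 2. Stat2 had 21.5, 141.3 and 16.3 FPKM against 7.35, 6.55 and 6.43 FPKM, so that control replicate 2 was 7.48 times the mean of the other controls. Its log2 fold change was -2.30 (SE 0.79, adjusted p = 0.875 in limma), and -1.35 without that library (adjusted p = 0.0329). Irf9, the DNA-binding subunit of ISGF3, had 18.05, 14.3 and 17.6 FPKM against 7.26, 8.48 and 7.89 FPKM and differed by -0.99 (SE 0.19, adjusted p = 0.372 in limma), and by -1.09 without control replicate 2 (adjusted p = 0.0198). Irf7, a factor that amplifies interferon production, had 31.04, 140.5 and 24.8 FPKM against 7.71, 8.39 and 5.69 FPKM and differed by -2.58 (SE 0.66, adjusted p = 0.711 in limma), and by -1.81 without it (adjusted p = 0.0291). Irf1, Irf3, Jak1 and Tyk2 were not called in either fit.

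Sensors of double-stranded RNA that work beside the OAS proteins made up the other 4 calls. Without control replicate 2, limma called Dhx58 (LGP2) at -2.06, Ddx58 (RIG-I) at -1.35, Ifih1 (MDA5) at -1.34 and Eif2ak2 (PKR) at -1.18, with adjusted p-values between 0.0107 and 0.0176. Dhx58 had 24.4, 47.7 and 20.5 FPKM in control and 3.95, 4.69 and 5.29 FPKM in PM2.5 libraries. Unlike for Dhx58, control replicate 2 was the lowest control for Eif2ak2, Ifih1 and Ddx58 and lay nearer the PM2.5 libraries. It had 27.3 FPKM of Eif2ak2, 6.95 of Ifih1 and 24.8 of Ddx58. The highest PM2.5 library had 23.2, 5.55 and 16.7 FPKM. Tlr3, Adar and Mavs, the adaptor of RIG-I and MDA5, were not called in either fit, and Zbp1 was under the filter without control replicate 2.

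**Figure D5:**
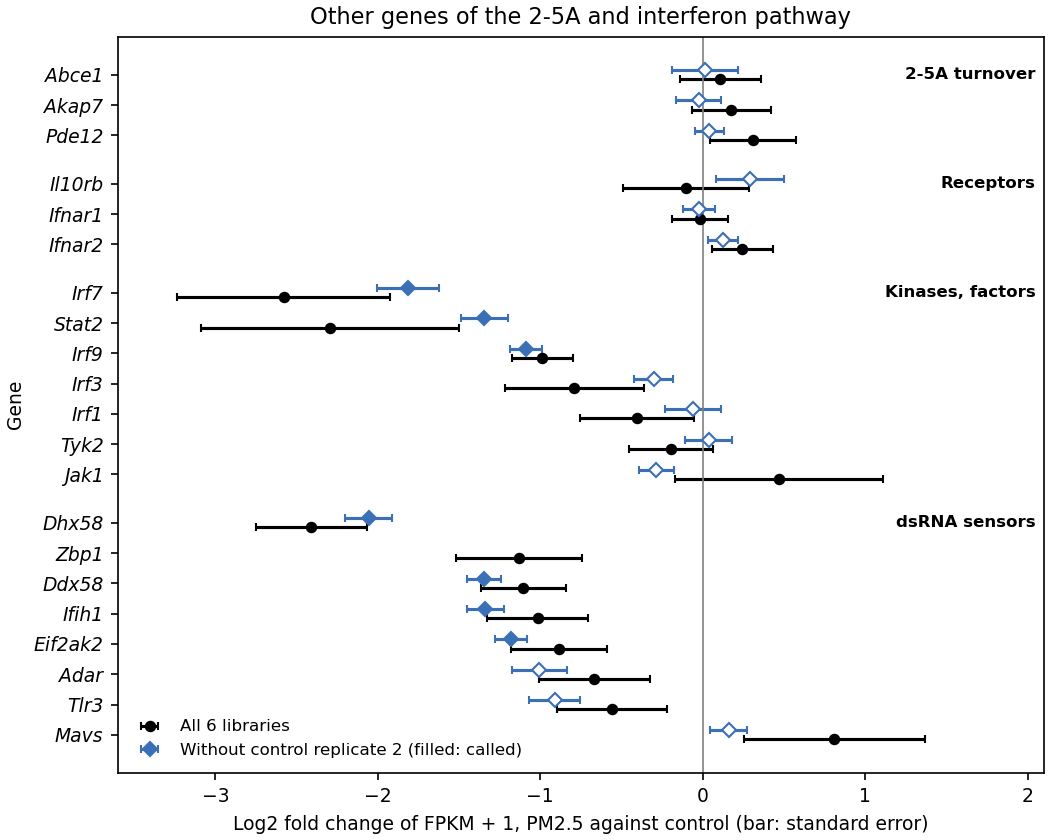
Log2 fold change of FPKM + 1 (x axis, PM2.5 against control, bars are standard errors from limma) of 21 tested pathway genes grouped by role, with all 6 libraries (black) and without control replicate 2 (blue, filled where called). The 7 filled points are Irf7, Stat2, Irf9, Dhx58, Ddx58, Ifih1 and Eif2ak2, all below 0, and the genes of 2-5A turnover and the receptors lie around 0.

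Genes next to the OAS clusters were not called. Over all genes tested, 11 of 11884 were called with all 6 libraries and 84 of 11597 without control replicate 2. The absence of calls among so few neighbours is therefore not read as a result. Within 200 kb of the Oas cluster, 5 other genes were tested and differed by -0.34 to 0.73 (-0.44 to 0.83 without control replicate 2), and 10 around the Oasl cluster differed by -1.12 to 0.42 (-0.34 to 0.28 without it). Of these 15 neighbours, only Git2, near Oasl1 and Oasl2, had every control library above every PM2.5 library, with a log2 fold change of -0.23. Of all genes tested, 6.85% did so.

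Across the 6 libraries, the mean profile of the 8 genes was compared with those of 6354 other genes that varied by at least 1 on the log2 scale. The most alike, by Pearson's r, were Col6a1 (a collagen VI chain, 0.997), Rtp4 (an interferon-induced receptor transporter, 0.997), Gper1 (a membrane oestrogen receptor, 0.996), Ifit3 (an interferon-induced antiviral gene, 0.992) and Ifi44 (also interferon-induced, 0.991). An unnamed transcript (0.989), Htra3 (0.987), Tcf21 (0.986), Cd74 (0.985) and Sp100 (0.985) followed, and 43 genes reached 0.95. These values describe likeness over 6 libraries that share the group contrast and the scaling of control replicate 2. The members themselves ranged from 0.809 (Oasl1) to 0.977 (Oas2), each set against a mean that includes it. Rtp4 had 52.7, 68.3 and 47.5 FPKM in control and 10.5, 11.2 and 9.66 FPKM in PM2.5 libraries, and like the members its groups did not overlap.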

How the data were processed

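RNA of 3 control and 3 PM2.5 libraries was sequenced with the NEBNext Ultra kit on an Illumina NovaSeq. The authors mapped reads with HISAT2 2.0.5 and counted them with featureCounts 1.5.0-p3, per the submitters' processing notes, and deposited FPKM per gene. The notes name mm9, while identifiers and lengths matched GENCODE M21 (GRCm38), which was used for positions: 54495 of 54886 genes matched. FPKM times exon length gave whole reads (within 0.01) for 97.8% to 98.1% of values under 50 reads, which provided depth and voom input. The FPKM denominator implied by these steps was 0.800 times the recovered reads in control replicate 2 and 1.03 to 1.05 times in the others, so the deposited FPKM were already scaled between libraries. The precision is limited by 3 libraries a group.

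The members and gene lists were chosen with earlier results of these data known. Groups came from the sample labels. limma 3.58.1 (trend and robust options, statmod 1.5.0, R 4.3.3) was fitted to log2(FPKM + 1) of the 11884 genes whose FPKM averaged at least 1, with p-values adjusted over all of them. Named were all members, pathway genes called or listed for their role, and the 10 most alike genes (Git2 was chosen after its values were seen). Same-numbered libraries correlated at -0.285, 0.180 and 0.253 in their deviations from group means, so the numbers were not taken as pairs. Alternatives were other filters, pseudocounts, scalings, voom, a replicate block and leaving out each library. The scripts were tested on simulated data. Promoters were taken from RefSeq (GRCm38.p6) for 6 of 8 members and searched for exact motifs, the ISRE core also with at most 1 mismatch. Protein sequences were not analysed here, and 2 genes of the pathway list are not reported here.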

Additional observations from a re-analysis of the deposited data

How the results depend on the processing

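The log2 fold changes of all 8 OAS genes stayed below 0 in each setting run (14 settings, 13 for Oas1c, which fell under the filter without control replicate 2). Under the alternatives, 97 values of members moved by less than the spread between libraries and 6 by more, all for Oas1c, Oas1g and Oas3 with a pseudocount of 0.1 or voom, where the decreases were larger. The member median of -1.54 became -1.94 with a pseudocount of 0.1 and -2.004 with voom. Scaling to recovered total reads moved the median of all genes by 0.11, relative to which the member median was -1.57. Among alternatives chosen after seeing the data, the Oas minus Oasl difference of -0.31 turned to 0.0261 with control replicate 2 left out and Oas1c kept, and became -0.57 with only Oas1c left out. The member median was -1.68 and -1.62 in these settings.

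Calls were less stable. Over all genes limma called 11, which became 4 with a mean FPKM of at least 0.1, 0 with no filter (875 at an unadjusted p under 0.05), 6 with total-read scaling, 0 with voom (423 unadjusted), and 0 with the replicate block (335 unadjusted). Leaving out each library in turn gave 0 to 84, the highest without control replicate 2 and 0 without any other (194 to 625 unadjusted). Of the members, 1 was called (Oasl2), and 0 with a mean FPKM of at least 0.1, no filter, quantile normalization, total-read scaling, voom or the replicate block; leaving out each library gave 0 to 5. Pathway genes called went from 0 to between 0 and 7, the 7 only without control replicate 2. The other 265 alternative values of pathway genes were likewise not called. Fold changes among them still moved, as for Zbp1 from -1.13 to -2.17 with voom. The share of promoters with an ISRE core went from 66.7% to 100% of members and from 3.44% to 35.4% of all promoters with 1 mismatch. The looser motif search keeps every exact match, so these shares can only rise. The cause of the other changes was not tested. With 3 libraries a group and few reads for Oas1c, small differences in this gene could not be resolved.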
